A study of Rattus norvegicus with 20 samples.

Results

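The genes described here encode neurofilaments and other filament and microtubule-binding proteins of axons, measured by RNA sequencing in rat dorsal root ganglia (DRG) with and without injury of the sciatic nerve. The set held 8 of the 39747 genes in the count table and was chosen by name, with earlier results of these data known. Its members are Nefl (gene ID 83613), Nefm (24588), Nefh (24587), Prph (24688), Ina (24503), Map1b (29456), Map1a (25152) and Mapt (29477). All 8 were found once and passed the filter on low counts.

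Neurofilaments are the main intermediate filaments of myelinated axons. The light, medium and heavy subunits encoded by Nefl, Nefm and Nefh co-assemble, and their amount is known to scale with axon caliber, so that large-diameter A-fiber sensory neurons hold far more of them than the thin C-fiber neurons. Prph encodes peripherin, an intermediate filament protein of peripheral neurons that is most abundant in small sensory neurons, and Ina encodes alpha-internexin, a filament protein best known from central and developing neurons. Map1b, Map1a and Mapt encode proteins that bind and stabilize axonal microtubules; MAP1B is the form of growing axons, MAP1A that of mature neurons, and tau is the product of Mapt. It is textbook knowledge that cutting or crushing a peripheral nerve lowers neurofilament mRNA in the sensory neuron cell body while tubulin and growth genes rise.

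The study used female wild-type Sprague-Dawley rats fed either a soy oil diet (SOD) or a fish oil diet (FOD) enriched in omega-3 fatty acids for 4 weeks before surgery. In chronic constriction injury (CCI), 4 loose chromic gut ligatures were placed on the left sciatic nerve; control (CT) rats had a sham exposure of the nerve with no ligature. The DRG are reported as collected 1 week after CCI, and the labels give 1 week of recovery. The diets are also given as going on for 4 weeks after the operation, which is longer than that time. The 20 libraries came from 14 rats: on the left side, 4 and 3 sham rats on soy and fish oil, and 3 and 4 injured rats on soy and fish oil; on the right (contralateral) side, 3 injured rats of each diet, each also sampled on the left. Nothing in the sources used here says whether ganglia were pooled within a rat. Right DRG of sham rats and DRG of unoperated rats were not analysed here, and the sources used here do not give the spinal level of the ganglia. The comparisons ask whether injury changes these genes under each diet, whether diet changes them with and without injury, and whether the injured side differs from the other side of the same rat.

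Libraries held 22547190 to 54437581 counts assigned to genes, and the lowest count of any of the 8 genes in any library was 268 (Ina). Several libraries stood apart, in ways that touch these genes. SOD-CT replicate 1 had a mean log2 CPM (CPM, counts of a gene relative to all counts of its library, scaled by TMM) of 13.57 for skeletal muscle genes, 12.3% of its counts came from that list of 12 muscle markers, and all 12 were above 1 CPM; the list lay between -2.59 and 10.93 in the other libraries, with FOD-CT replicate 2 the next highest. FOD-CT replicate 1, the contralateral FOD-CCI replicate 1 and FOD-CCI replicate 1 had all 10 markers of spinal cord glia and inhibitory neurons above 1 CPM, at mean log2 levels of 7.20, 7.59 and 7.24, while no other library exceeded 0.92. In the contralateral FOD-CCI replicate 1, markers of C-fiber neurons averaged 0.18 on the log2 CPM scale, with 3 of 10 at 0, against 5.64 to 7.86 in the 19 other libraries; general neuron markers were all detected in those 19, and 1 of 12 was at 0 in this one. The library labelled FOD-CCI replicate 1 had 3.24 CPM of Atf3, a transcription factor switched on by axon injury, whereas the 6 other left CCI libraries had 202.1 to 513.8 CPM, the sham libraries 12.5 to 48.5 CPM and the contralateral libraries 6.26 to 14.8 CPM. That library was also below every other left CCI library for Sprr1a (0 CPM), Gal (8.53), Npy (5.15), Jun (100), Gap43 (157.6), Sox11 (0.88), Adcyap1 (18.2) and Vip (1.47), which are further injury markers. Ecel1, another of them, was at 44.8 CPM, within the range of the other left CCI libraries. For this one animal most of the injury genes go against the label, and the main results that rest on it are given with and without it.

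Per length of transcript, the neurofilament genes ranked among the most abundant of the ganglion. Deposited FPKM values, which divide read numbers by transcript length and library size, had medians over the 20 libraries of 3317 for Nefl, 1685 for Nefm, 1568 for Prph, 1090 for Nefh, 282.8 for Map1b, 92.6 for Map1a, 49.4 for Mapt and 21.7 for Ina. By mean FPKM, Nefl was the 8th, Nefm the 24th, Prph the 31st and Nefh the 53rd most abundant of the 39747 genes, and Ina was 3049th. Over all libraries the ranges of Nefm (199.1 to 2874 FPKM), Prph (60.0 to 2354 FPKM) and Nefh (123.2 to 1858 FPKM) overlapped. Within single libraries, Nefm was above Nefh in every one. Nefm was also above Prph in every sham library and in every contralateral library but contralateral SOD-CCI replicate 1. Among the left CCI libraries, Prph was above Nefm in all but FOD-CCI replicate 1. These orders are given without a test.

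The 3 neurofilament subunits varied less relative to each other than in level. On the FPKM scale the ratio of Nefm to Nefl lay between 0.399 and 0.738 and that of Nefh to Nefl between 0.236 and 0.519, over a range of Nefl itself from 417.5 to 4593 FPKM. The ratio of Nefh to Nefl was 0.440, 0.465 and 0.470 in the SOD-CCI libraries, above the highest of all sham and contralateral libraries (0.405), and ran from 0.337 to 0.519 in FOD-CCI, overlapping them. Nefm stood at 0.596 to 0.658 of Nefl in SOD-CCI and at 0.464 to 0.554 in SOD-CT. These ratios are given without a test, and the share of other gene pairs that lie as far apart was not computed.

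Nefl CPM was lower in left DRG after CCI than in most uninjured DRG. After CPM scaling by TMM (trimmed mean of M values, a correction for differences in library composition), Nefl was at 3923, 8742, 7601 and 7094 CPM in SOD-CT replicates 1 to 4 and at 5104, 4394 and 4316 CPM in SOD-CCI. All 3 injured libraries lay below 3 of the 4 sham libraries, and the muscle-rich SOD-CT replicate 1 lay below all of them. Under the fish oil diet, Nefl was at 3431, 8941 and 8838 CPM in FOD-CT and at 7101, 4146, 3955 and 3188 CPM in FOD-CCI. The groups overlapped again, through the low sham library and the high CCI library that both carry spinal cord transcripts. FOD-CT replicate 2, next highest in muscle RNA after SOD-CT replicate 1, had the highest Nefl level of the left side. In the contralateral DRG Nefl was at 7171, 8816 and 9745 CPM in SOD-CCI rats and at 828, 8493 and 6434 CPM in FOD-CCI rats.

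Nefm showed the same arrangement as Nefl, and Nefh overlapped further between the groups. Nefm was at 2754, 7275, 5959 and 5943 CPM in SOD-CT against 4813, 3961 and 4294 CPM in SOD-CCI, and at 2758, 7398 and 7184 CPM in FOD-CT against 6047, 3717, 4417 and 2674 CPM in FOD-CCI. Nefh was at 1757, 6016, 5255 and 4220 CPM in SOD-CT against 4257, 3879 and 3850 CPM in SOD-CCI, and at 2251, 5638 and 5942 CPM in FOD-CT against 4681, 2647, 3893 and 2523 CPM in FOD-CCI. All SOD-CCI libraries lay below SOD-CT replicates 2 to 4 for Nefm, while for Nefh the highest SOD-CCI library (4257 CPM) was above SOD-CT replicate 4 (4220 CPM). In bulk tissue, fewer neurons of a type and less RNA in each neuron cannot be told apart.

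**Figure D1:**
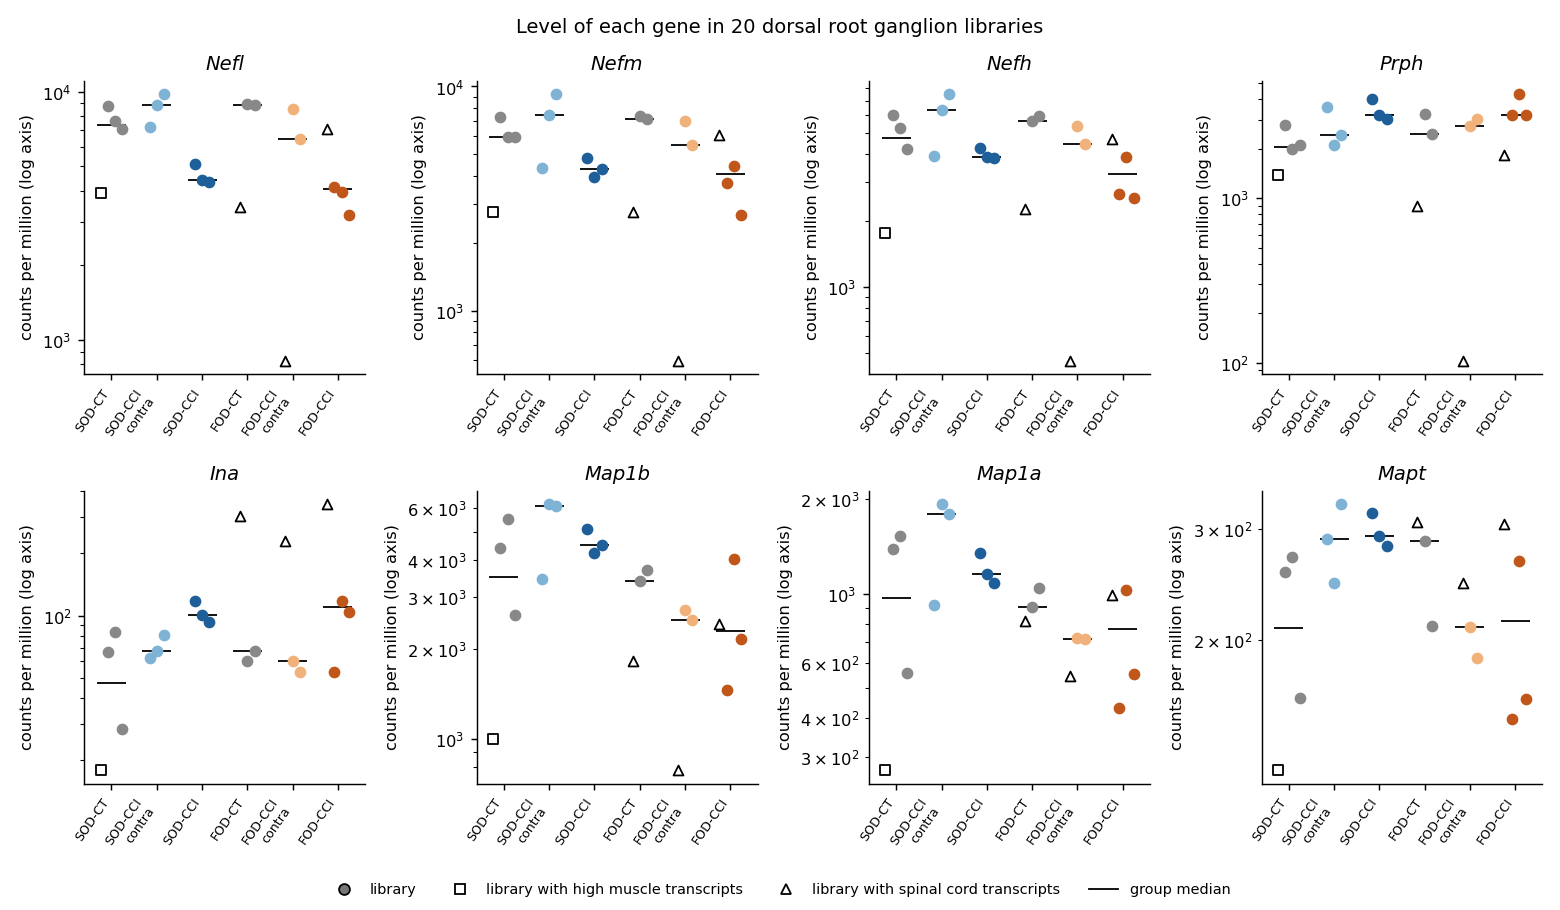
CPM (log axis, TMM-scaled) of each gene in every library, by group, with group medians as horizontal lines. The open square is the library with the most muscle transcripts, which some unmarked sham and contralateral libraries also held. Open triangles are the libraries with spinal cord transcripts. Apart from the open symbols, Nefl is at 3188 to 5104 CPM in left CCI DRG and at 6434 to 9745 CPM in the sham and contralateral DRG. The open symbols are at 3923 CPM in SOD-CT, 3431 in FOD-CT, 828 in contralateral FOD-CCI and 7101 in FOD-CCI. With them the groups overlap, and the share of all genes apart without them was not computed.

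No member was called in either injury comparison when all 14 left libraries were fitted together with edgeR's quasi-likelihood test, where a call needed a fold of 1.2 or more and an adjusted p (Benjamini and Hochberg) no higher than 0.1. In these comparisons 0% of the 14484 genes tested were called. At an unadjusted p under 0.05 there were 0 members under either diet, against 13.8% of genes under the soy oil diet and 4.52% under the fish oil diet. Log2 fold changes from sham to injury were -0.56 ± 0.39 (SE) for Nefl, -0.32 ± 0.40 for Nefm and -0.10 ± 0.41 for Nefh under the soy oil diet (adjusted p = 0.521, 0.741 and 0.933). Under the fish oil diet they were -0.62 ± 0.38, -0.46 ± 0.39 and -0.43 ± 0.41 (adjusted p = 0.9997 for all 3). Averaged over both diets, Nefl had a log2 fold change of -0.59 ± 0.27, with an unadjusted p of 0.0474 and an adjusted p of 0.427; 11.5% of all genes tested had an unadjusted p under 0.05 in that comparison, and 0% were called. DESeq2 called 0 members as well, among 594 genes called under the soy oil diet and 21 under the fish oil diet. Muscle RNA moved with injury as well: the 5 of 12 muscle markers that passed the filter were all lower after injury, each with an unadjusted p under 0.05 under both diets, with median log2 fold changes of -10.19 and -7.59 and 0 called. The muscle list lay at -1.75 to 13.57 log2 CPM in SOD-CT and 5.41 to 10.93 in FOD-CT, against -1.46 to 1.59 in SOD-CCI and -2.59 to 3.38 in FOD-CCI, and its part in the neurofilament values was not tested.

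These outcomes changed when 3 left libraries were left out, the one with the most muscle RNA and the 2 with spinal cord transcripts. Without SOD-CT replicate 1, FOD-CT replicate 1 and FOD-CCI replicate 1, a choice made after the data were seen, the fit to the 11 remaining libraries called Nefl lower after injury under the soy oil diet, with a log2 fold change of -0.76 ± 0.17 (adjusted p = 0.0818), and 1.32% of 15177 genes were called. Under the fish oil diet the same fit called Nefl (-1.25 ± 0.19, adjusted p = 0.0164), Nefm (-1.03 ± 0.22, adjusted p = 0.0442) and Nefh (-0.95 ± 0.22, adjusted p = 0.0564), and 3.47% of the genes were called. The fish oil calls did not hold when replicate numbers entered as a block within the fish oil groups, whose sham and injured libraries of the same number deviated together: Nefl was then at -1.15 ± 0.23, Nefm at -0.86 ± 0.23 and Nefh at -0.86 ± 0.24 (adjusted p = 0.1003, 0.189 and 0.208). For the mean of both diets Nefl fell by 1.00 ± 0.13, Nefm by 0.79 ± 0.15 and Nefh by 0.66 ± 0.15 on the log2 scale (adjusted p = 0.0021, 0.0109 and 0.0260), in a comparison where 7.77% of the genes were called and 3.44% were called lower; with the block all 3 were called again (adjusted p = 0.0104, 0.0385 and 0.0722). Of the 5 sham libraries in this fit, FOD-CT replicate 2 kept the muscle level of 10.93 given above. The libraries left out include the CCI library whose Atf3 was at an uninjured level. For Nefl, Nefm and Nefh, that library was the highest of the left CCI libraries. Each sham library left out was the lowest of its group for these genes. Leaving out such libraries lowers these fold changes, so the calls depend on this choice. Leaving out only FOD-CT replicate 1 and FOD-CCI replicate 1 gave a call for Nefl alone in the mean of both diets (-0.90 ± 0.20, adjusted p = 0.0533, 3.12% of genes called), and leaving out any single left library called no member.

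**Figure D2:**
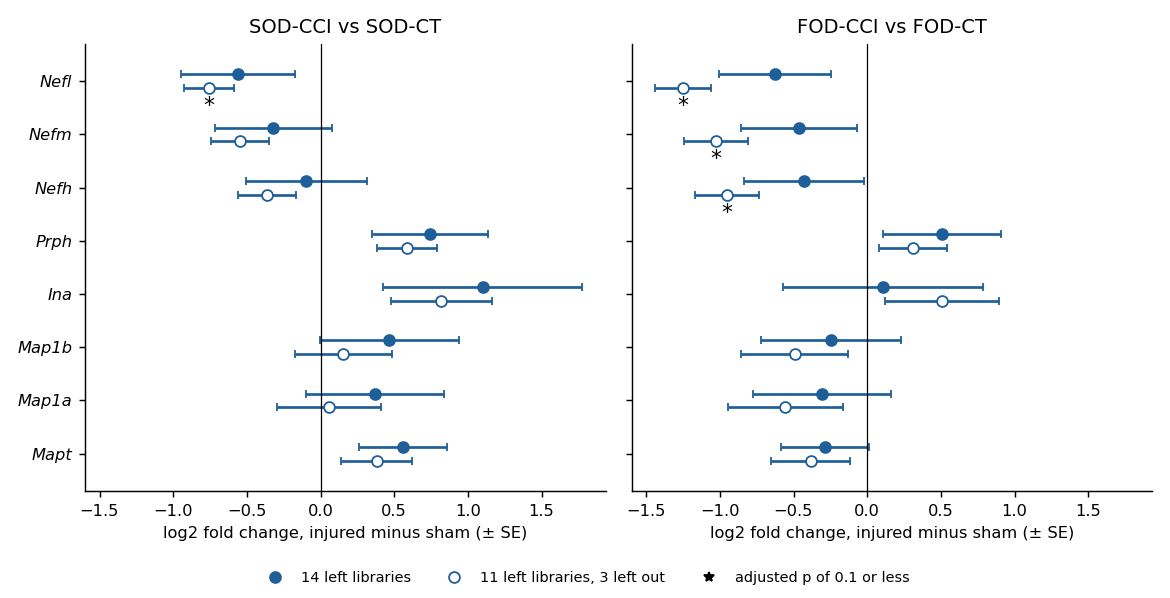
Log2 fold change from sham to injury with its standard error for the 8 genes under each diet, fitted to all 14 left libraries (filled) and without the left libraries with the most muscle RNA (1) or with spinal cord transcripts (2) (open); asterisks mark an adjusted p of 0.1 or less. Among the open points the neurofilament genes lie between -1.25 and -0.36 and Prph and Ina between 0.31 and 0.82. With all libraries no point is marked. The libraries left out were chosen after the data were seen. For the neurofilament genes they were the lowest sham library of each diet and the highest left CCI library.

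The contralateral DRG of the same rat gave a second reference. From the contralateral to the injured side, Nefl changed by -0.49, -1.0 and -1.18 on the log2 CPM scale in the 3 SOD-CCI rats and by 3.10, -1.04 and -0.70 in the 3 FOD-CCI rats. It was lower on the injured side in 5 of 6 rats, and the exception was the rat with spinal cord transcripts in both ganglia. Nefm changed by 0.15, -0.91 and -1.10 in the SOD-CCI rats and by 3.34, -0.92 and -0.32 in the FOD-CCI rats. Nefh changed by 0.12, -0.71 and -0.96 and by 3.34, -1.03 and -0.20 in the same order. SOD-CCI rat 1 was thus the only rat outside FOD-CCI rat 1 in which Nefm and Nefh were not lower on the injured side, and its Nefm and Nefh levels were the lowest of the contralateral SOD-CCI DRG (4326 and 3919 CPM).

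In the fit of the 12 paired libraries with the rat as a block, 0 of the 8 genes were called for either diet or their mean, against 0.131% of 14549 genes called under the soy oil diet, 0.0137% under the fish oil diet and 0.962% in the mean of both diets. At an unadjusted p under 0.05 there was 1 member, Ina, under the soy oil diet and in the mean (8.48% and 11.6% of genes) and 0 under the fish oil diet (6.96%). Nefl had a log2 difference of -0.86 ± 0.64 under the soy oil diet, 0.23 ± 0.75 under the fish oil diet and -0.32 ± 0.49 in the mean (adjusted p = 0.804, 0.962 and 0.854). The repeat without FOD-CCI rat 1 changed this. In the 5 rats left, Nefl was lower on the injured side in 5 of 5, as were 9.82% of all genes, with a mean log2 difference over both diets of -0.89 ± 0.13 (adjusted p = 0.0070). Nefm, lower in 4 of 5 rats, was called as well (-0.63 ± 0.19, adjusted p = 0.0993), and Nefh, also lower in 4 of 5, was not (-0.58, adjusted p = 0.113). In that fit 7.64% of 14992 genes were called and 3.33% were called lower. Under the soy oil diet alone Nefl was called (-0.87 ± 0.17, adjusted p = 0.0385, 3.14% of genes called), and under the fish oil diet, with 2 rats left, it was not (-0.92, adjusted p = 0.129, 0.914% of genes called).

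**Figure D3:**
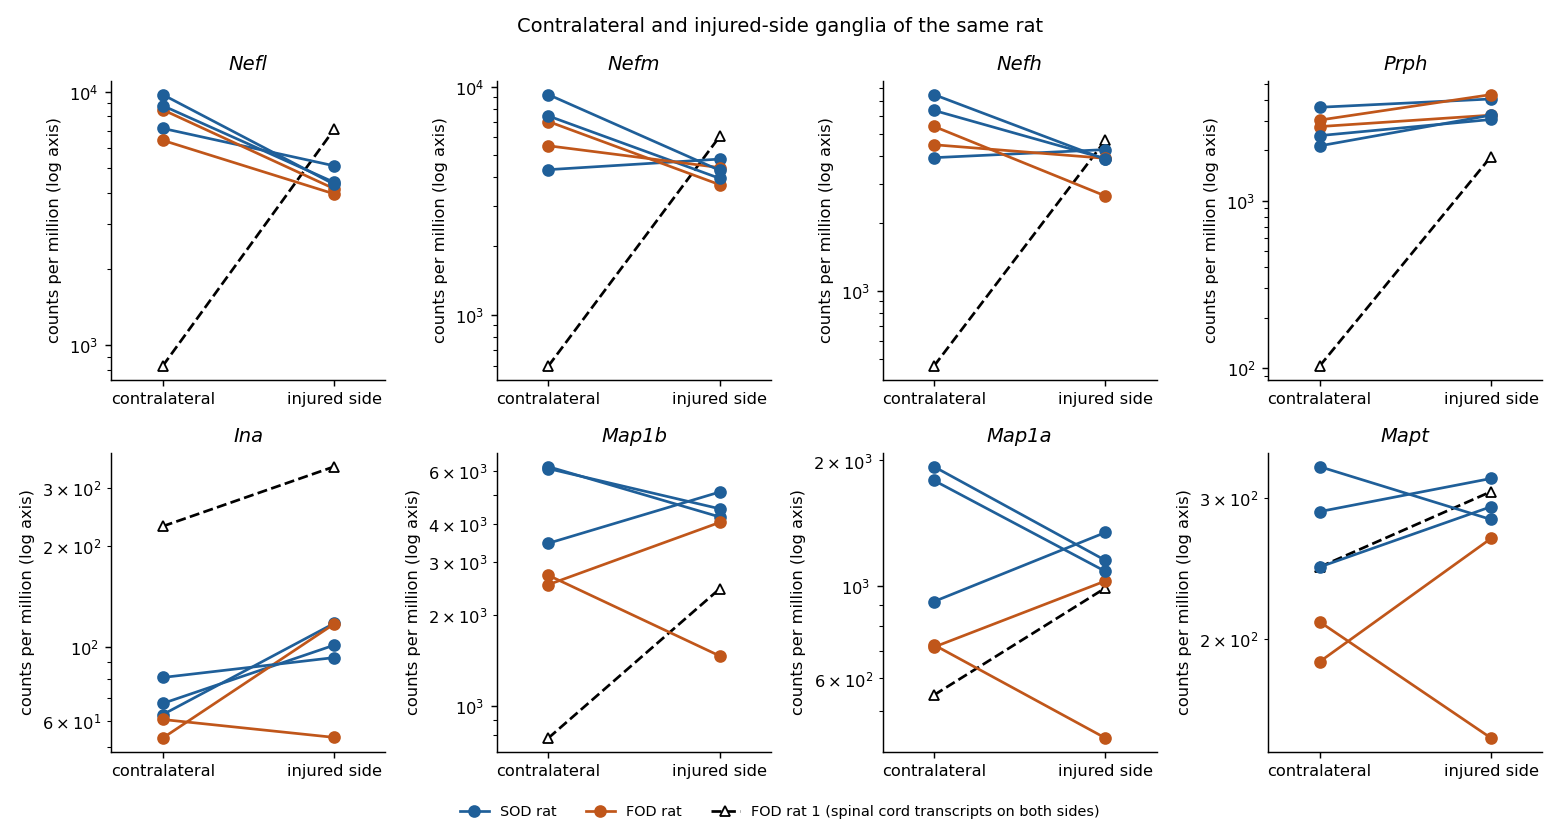
CPM (log axis, TMM-scaled) in the contralateral and the injured-side DRG of 6 CCI rats, with a line joining the ganglia of one rat; the dashed line is FOD-CCI rat 1, whose ganglia both held spinal cord transcripts. Nefl is lower at the injured end of 5 of 6 lines and Prph higher at that of 6 of 6.

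Peripherin lay in the other direction. Prph was at 1391, 2788, 1994 and 2110 CPM in SOD-CT and at 4042, 3236 and 3049 CPM in SOD-CCI, so that every injured library lay above every sham library; 9.54% of all genes were apart in that direction. In FOD-CT it was at 900.5, 3241 and 2470 CPM and in FOD-CCI at 1833, 3236, 4293 and 3200 CPM, and these groups overlapped. Of the 8 members, Prph, Ina and Mapt were apart and higher in SOD-CCI and 0 were apart and lower (8.1% of genes), and in FOD-CCI 0 were apart in either direction (2.47% of genes higher and 2.12% lower). The log2 fold change of Prph was 0.74 ± 0.39 under the soy oil diet and 0.51 ± 0.40 under the fish oil diet (adjusted p = 0.407 and 0.9997), and 0.62 ± 0.28 in the mean of both, with an unadjusted p of 0.0435 and an adjusted p of 0.414; the mean was 0.72 ± 0.27 without FOD-CCI replicate 1 and 0.45 ± 0.15 without all 3 libraries (adjusted p = 0.228 and 0.135). Other neuronal transcripts moved with Prph under the soy oil diet, where 10 of 10 C-fiber markers were higher after injury (median log2 fold change 0.50, 2 with an unadjusted p under 0.05) and 8 of 12 general neuron markers were (median 0.42, 1 with such a p). None of these was called, and their part in the Prph value was not tested. Within rats Prph was higher on the injured side in 6 of 6, as were 5.24% of all genes, with log2 differences of 0.16, 0.61 and 0.32 in the SOD-CCI rats and 4.16, 0.23 and 0.50 in the FOD-CCI rats. Without FOD-CCI rat 1 it was higher in 5 of 5, as were 10.4% of genes. The mean difference of 0.91 ± 0.46 over the 6 rats was not called (adjusted p = 0.498), nor was that of 0.35 ± 0.12 without FOD-CCI rat 1 (adjusted p = 0.1545), and no alternative called Prph in any comparison.

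The ratio of Prph to Nefl combines both differences, and under the soy oil diet it left a wide gap between the groups. On the FPKM scale Prph stood at 0.410, 0.369, 0.303 and 0.344 of Nefl in SOD-CT, at 0.303, 0.419 and 0.323 in FOD-CT, and at 0.144 to 0.581 in the 6 contralateral libraries. It was 0.915, 0.851 and 0.817 of Nefl in SOD-CCI. In FOD-CCI it was 0.902, 1.26 and 1.16 in replicates 2 to 4, while the library labelled FOD-CCI replicate 1 was at 0.298, below every sham library. The ratio was looked at after both levels were known and is given without a test. Of single genes, 9.54% were apart and higher and 8.1% apart and lower in SOD-CCI against SOD-CT. The share of other gene pairs with such a gap was not computed. The part of the mix of small and large neurons in the ratio was not tested. The ratio does not depend on library scaling, since both values come from the same library.

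**Figure D4:**
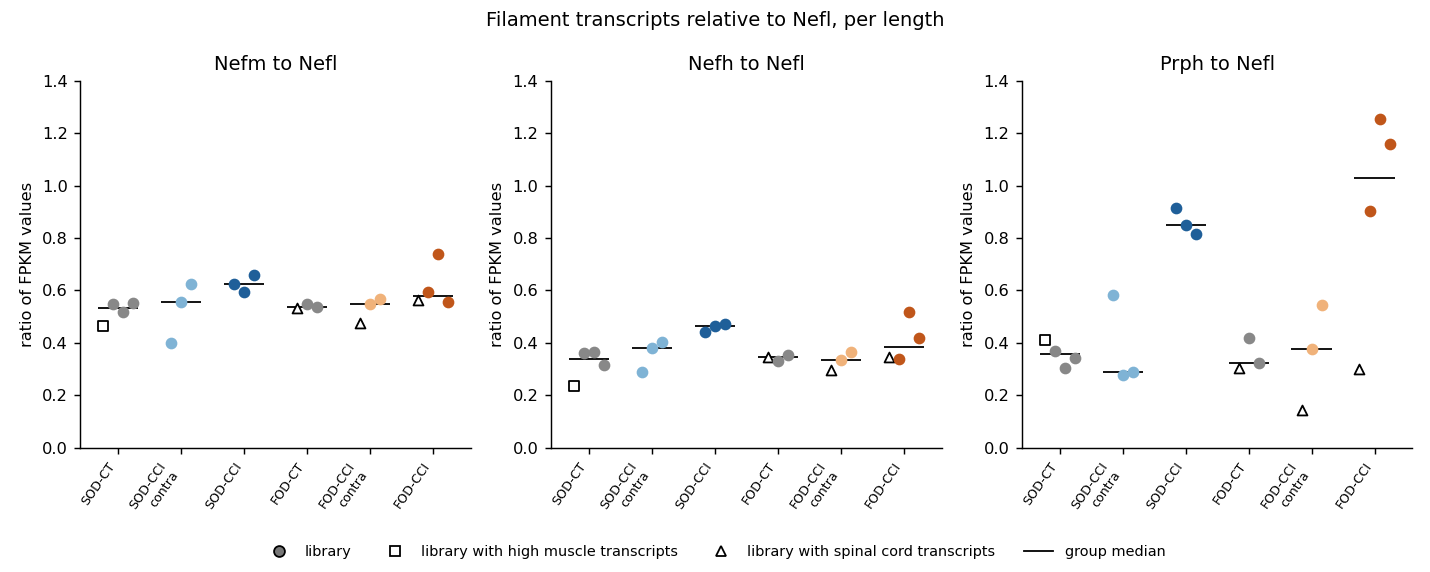
FPKM of Nefm, Nefh and Prph divided by FPKM of Nefl in each library, by group, with group medians as lines. Open symbols mark the library with the most muscle transcripts (square) and those with spinal cord transcripts (triangle). Prph reaches 0.817 to 1.26 of Nefl in 6 of the 7 left CCI libraries and at most 0.581 in all others.

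Ina was the scarcest gene of the set, and its highest levels were in the 3 libraries with spinal cord transcripts. It was at 303.6 CPM in FOD-CT replicate 1, 229.6 CPM in the contralateral FOD-CCI replicate 1 and 346.6 CPM in FOD-CCI replicate 1, and at 17.9 to 117.4 CPM in the 17 other libraries. The log2 fold change of 1.58 ± 0.68 between FOD-CT and SOD-CT (unadjusted p = 0.0351, adjusted p = 0.965) became 0.41 ± 0.50 without FOD-CT replicate 1 and FOD-CCI replicate 1. Within the soy oil diet, whose libraries had at most 0.92 log2 CPM of the spinal cord markers, Ina was at 17.9, 66.6, 82.9 and 28.2 CPM in SOD-CT and at 117.4, 101.0 and 92.7 CPM in SOD-CCI, with all injured libraries above all sham libraries and a log2 fold change of 1.10 ± 0.67 (adjusted p = 0.470). From the contralateral to the injured side Ina changed by 0.91, 0.58 and 0.20 in the SOD-CCI rats and by 0.59, -0.18 and 1.14 in the FOD-CCI rats on the log2 CPM scale. The mean difference was 0.53 ± 0.18, with an unadjusted p of 0.0166 and an adjusted p of 0.301, and its value without FOD-CCI rat 1 was 0.51 ± 0.19 (adjusted p = 0.190).

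Promoter sequences of 4 of the 8 genes (Prph, Ina, Map1b and Map1a) were found in the RefSeq table of GRCr8. The 250 bases upstream of the listed start are shown for Prph and Ina, the filament genes that were higher in every SOD-CCI library than in every SOD-CT library. Capitals mark a TATA box (TATAAA) in Prph, at chr7:132097039-132097288 on the plus strand, and GC boxes (GGGCGG, read on either strand) in Ina, at chr1:255837879-255838128 on the plus strand.
Prph: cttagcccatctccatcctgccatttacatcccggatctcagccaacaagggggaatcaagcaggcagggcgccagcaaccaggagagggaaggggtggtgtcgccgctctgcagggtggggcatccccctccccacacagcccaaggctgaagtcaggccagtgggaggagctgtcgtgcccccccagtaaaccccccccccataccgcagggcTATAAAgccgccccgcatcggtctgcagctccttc
Ina: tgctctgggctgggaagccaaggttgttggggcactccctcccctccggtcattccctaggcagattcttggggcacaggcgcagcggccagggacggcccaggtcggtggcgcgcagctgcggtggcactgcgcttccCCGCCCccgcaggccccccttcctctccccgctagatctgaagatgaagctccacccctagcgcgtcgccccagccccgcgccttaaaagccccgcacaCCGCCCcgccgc
Searched on both strands, TATAAA occurred in the same window of 12.9% of the 33469 promoters listed and GGGCGG in 30.5%. Among the 4 members, TATAAA was found in Prph and Map1b and GGGCGG in Prph, Ina and Map1a. The AP-1 motif TGANTCA, the motif of the dimer that Jun forms, was in 6.34% of all promoters and the cyclic AMP response element TGACGTCA, to which ATF3 can bind, in 1.59%; neither was in the window of any of the 4 members. No sequence is shown for Nefl, Nefm, Nefh and Mapt.

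None of the microtubule-binding genes passed the test with injury. Map1b was at 996.8, 4398, 5499 and 2621 CPM in SOD-CT and at 5112, 4226 and 4498 CPM in SOD-CCI, and at 1834, 3415 and 3698 CPM in FOD-CT against 2443, 1463, 4054 and 2173 CPM in FOD-CCI; the groups overlapped under both diets. Its log2 fold change was 0.47 ± 0.47 under the soy oil diet and -0.24 ± 0.47 under the fish oil diet (adjusted p = 0.674 and 0.9997). Map1a gave 0.37 ± 0.47 and -0.30 ± 0.47. Mapt was at 282.3 to 317.7 CPM in SOD-CCI, above all SOD-CT libraries at 124.6 to 270.8 CPM, with a log2 fold change of 0.56 ± 0.30 (adjusted p = 0.409); between the FOD groups, at 210.8 to 307.8 and 150.4 to 305.9 CPM, it was -0.29 ± 0.30. Without FOD-CCI replicate 1 the fish oil values were -0.23 ± 0.52 for Map1b, -0.47 ± 0.51 for Map1a and -0.49 ± 0.30 for Mapt. From the contralateral to the injured side, Map1b and Map1a were each higher in 2 of the 5 rats without FOD-CCI rat 1 and Mapt in 3 of 5, and none was called under any setting.

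Between the diets, Map1b and Map1a were lower in injured DRG of fish oil rats than of soy oil rats, without passing the test. All 4 FOD-CCI libraries (1463 to 4054 CPM of Map1b and 431.7 to 1028 CPM of Map1a) lay below all 3 SOD-CCI libraries (4226 to 5112 CPM and 1084 to 1344 CPM), as did 6.94% of all genes; 0% of genes were called and 5.4% had an unadjusted p under 0.05, with 0 members among them. The log2 differences were -0.86 ± 0.47 for Map1b and -0.67 ± 0.47 for Map1a (adjusted p = 0.859 and 0.862), and -0.85 ± 0.53 and -0.83 ± 0.51 without FOD-CCI replicate 1. Other neuronal lists lay lower in FOD-CCI too, with 0 called: 10 of 10 C-fiber markers (median -0.68), 9 of 12 general neuron markers (-0.31), 19 of 22 axonal motors (-0.35) and 14 of 16 spectrins, ankyrins and cross-linkers (-0.42). All 4 red cell markers were higher in FOD-CCI with an unadjusted p under 0.05 (median 4.55). The part of these in the values of Map1b and Map1a was not tested. The Map1b and Map1a transcripts, 11866 and 10110 bases in the table, are among the longest measured, and the 423 genes over 9000 bases had a median log2 difference of -0.29 in the same comparison, against 0.04 for all genes. Across genes, the Spearman correlation between the log2 difference and transcript length was -0.35, and its part in the Map1b and Map1a values was not tested beyond a fit with an offset for length, in which the differences were -0.55 ± 0.42 and -0.38 ± 0.41. Without the 3 libraries named above they were -0.84 ± 0.33 and -0.82 ± 0.35 (adjusted p = 0.354 and 0.387, 0% of genes called). Nefl, Nefm, Nefh, Prph and Ina differed between SOD-CCI and FOD-CCI by -0.21 to 0.59 on the log2 scale, with a 95% interval of -0.82 to 0.83 for Nefl.

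Whether the injury effect differed between the diets was tested as an interaction. All 8 members had an interaction below 0, as 48.6% of all genes did, and 0 were called, as were 0% of all genes. Below 0 means that the log2 fold change with injury lay lower under fish oil, which for Nefl, Nefm and Nefh was a larger fall. At an unadjusted p under 0.05 there were 0 members and 5.01% of genes. Mapt had the smallest p, with a value of -0.85 ± 0.42 (unadjusted p = 0.0648, adjusted p = 0.894), and -1.05 ± 0.41 without FOD-CCI replicate 1 (adjusted p = 0.694). The direction was shared by other neuronal lists: the interaction was below 0 for 10 of 10 C-fiber markers (median -0.69), 10 of 11 A-fiber markers (-0.47), 10 of 12 general neuron markers (-0.37), 18 of 22 axonal motors (-0.41) and 16 of 16 spectrins, ankyrins and cross-linkers (-0.46), with 0 called. The 4 red cell markers were above 0, each with an unadjusted p under 0.05 (median 6.73), and the Spearman correlation of the interaction with transcript length was -0.35 across genes. The part of these in the members' values was not tested. Nefl had -0.06 ± 0.54, with a 95% interval from -1.23 to 1.10. Between the sham groups Nefl, Nefm, Nefh and Prph differed by 0.07 to 0.12 on the log2 scale; 0% of genes were called there and 3.39% had an unadjusted p under 0.05, Ina among them. The side difference of Nefl differed between the diets by 1.09 ± 0.98 (adjusted p = 0.997; 0% of genes called and 2.91% with an unadjusted p under 0.05), and by -0.05 ± 0.27 without FOD-CCI rat 1.

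Levels were also set against those of neurons instead of the whole library, a scaling chosen after the data were seen. Relative to the mean log2 CPM of 12 general neuron markers, Nefl stood at 4.90 to 5.39 log2 units in SOD-CT, 4.68 to 5.09 in the contralateral SOD-CCI DRG and 4.10 to 4.17 in SOD-CCI. All SOD-CCI libraries were below all SOD-CT libraries for Nefl and Nefm, as were 14.5% of all genes on this scale, and above them for Ina and Mapt, as were 3.62%. The neuron markers themselves had a median log2 fold change of 0.42 with injury under the soy oil diet. With this scaling in the fit, the median over all genes was -0.46 in that comparison, and 0 genes were called. In the FOD groups Nefl stood at 4.22, 5.15 and 5.04 in FOD-CT and at 5.12, 4.47, 3.96 and 4.12 in FOD-CCI; 0 members were apart with all libraries (4.12% of genes higher and 0.69% lower), and Prph was apart and higher without FOD-CCI replicate 1, as were 11.5% of genes. The library FOD-CT replicate 1, with spinal cord transcripts, remained low for Nefl on this scale.

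Most markers of large sensory neurons were lower on the injured side. With all rats and both diets averaged, Nefl, Nefm and Nefh had log2 side differences of -0.32, -0.06 and -0.001. Under the fish oil diet theirs were 0.23, 0.48 and 0.49, while 8 of 11 A-fiber markers were lower. In the comparison of sides over both diets, 10 of 11 tested markers of A-fiber neurons were lower on the injured side, with a median log2 difference of -0.43 against 0.03 for all genes, of which 46.7% were below 0, and 0 were called; the one that was higher was Spp1, osteopontin, at 0.64 ± 0.15 (adjusted p = 0.151). Of 10 C-fiber markers, 9 were higher (median 0.47) and 0 were called. Without FOD-CCI rat 1, 10 of 12 A-fiber markers were lower (median -0.59) and 4 were called lower: Pvalb, the calcium buffer of proprioceptors, at -1.09 ± 0.23 (adjusted p = 0.0286), the transcription factor Etv1 at -0.64 ± 0.13, the vesicular glutamate transporter Slc17a7 at -0.83 ± 0.14 and Cntnap2, a protein of the myelinated axon membrane, at -0.59 ± 0.16; Spp1 was called higher (0.69 ± 0.14, adjusted p = 0.0228). In that fit 3.33% of all genes were called lower and 4.32% higher, and the median log2 difference over all genes was 0.02. The C-fiber markers split evenly there, 5 higher and 5 lower (median -0.03). The mean log2 level of the A-fiber list was 6.17 to 6.30 in SOD-CCI and 4.89 to 6.87 in SOD-CT, 5.31 to 6.0 in FOD-CCI and 5.63 to 6.64 in FOD-CT, 6.22 to 6.96 in the contralateral SOD-CCI DRG and 3.89 to 6.19 in the contralateral FOD-CCI DRG, where 2 of the 12 markers were at 0 in replicate 1. How far the number of large neurons sampled contributes to the Nefl values was not tested.

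The genes of the wider axon cytoskeleton that passed the test with all 6 rats were higher on the injured side. Of 12 tubulin genes tested, 8 were higher than on the contralateral side in the mean of both diets (median log2 difference 0.14), where 53.3% of all genes were above 0, and Tubb2b, a beta-tubulin of growing neurons, rose by 1.50 ± 0.18 on the log2 scale (adjusted p = 0.0159), the only one called; 0.962% of all genes were called and 0.811% called higher. Of 30 microtubule-associated and growth cone genes, 25 were higher (median 0.24) and 3 were called: Gap43, a growth cone membrane protein, by 1.58 ± 0.25, Basp1, its functional relative, by 0.81 ± 0.13 (adjusted p = 0.0391 for both), and the stathmin Stmn4 by 1.99 ± 0.41 (adjusted p = 0.0943). These 4 genes were not called against the sham groups, where Gap43 had 1.76 ± 0.34 in the mean of both diets (adjusted p = 0.101). Without FOD-CCI replicate 1, 3 of the 4 were called higher than in the sham groups in that mean, where 3.54% of genes were called: Gap43 (1.92 ± 0.24, adjusted p = 0.0036), Tubb2b (1.88 ± 0.28, adjusted p = 0.0059) and Basp1 (0.88 ± 0.19, adjusted p = 0.0375). Gap43 was also called under each diet (adjusted p = 0.0722 for soy oil and 0.0514 for fish oil). Between the sides without that rat, 2 tubulin genes and 7 growth cone genes were called higher and 0 lower, against 4.32% and 3.33% of all genes, with Tubb6 (1.85 ± 0.22) and Crmp1 (0.79 ± 0.19) among those added.

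The other lists held fewer called genes. In the same comparison of sides, 0 of 16 spectrins, ankyrins and cross-linkers, 0 of 22 axonal motors, 0 of 9 other intermediate filaments and 0 of 23 neurofilament kinases and turnover genes were called, with medians of 0.13, 0.13, 0.18 and 0.08 against 0.03 for all genes. Without FOD-CCI rat 1, 4.32% of all genes were called higher and 3.33% lower. The first of these lists then held 1 gene called higher, the actin-microtubule cross-linker Macf1 (0.87 ± 0.20). The motors held 1 gene called higher, Kif5c (0.74 ± 0.20), and 1 called lower, Dync1i1 (-0.57 ± 0.15). Among the other intermediate filaments, Gfap, the filament of activated satellite glia, rose by 1.95 ± 0.31 (adjusted p = 0.0094) in that fit, Synm fell by 0.63 ± 0.14 on the log2 scale, and of the kinase list Cdk5r2, an activator of the neurofilament kinase CDK5, fell by 0.62 ± 0.13 (adjusted p = 0.0297).

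The genes whose levels followed the neurofilaments most closely over the 20 libraries were LOC102549203, Trnp1, Amigo3, Necab3 and Plekhd1. Their Pearson r with the mean standardized log2 CPM of Nefl, Nefm and Nefh was 0.94 to 0.96, the highest of 14435 genes, and 0.83 to 0.88 without the 2 libraries lowest in neurofilament RNA. Among the members, r was 0.77 for Map1b, 0.76 for Prph, 0.57 for Map1a, 0.21 for Mapt and -0.31 for Ina. The value for Prph fell to 0.04 without those 2 libraries, while that for Map1b was 0.58. These are descriptions, since the libraries include both ganglia of 6 rats and share the differences in tissue makeup given above.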

How the data were processed

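RNA from rat DRG was sequenced after poly-A selection. Per the labels, the authors used fastp for trimming, HISAT2 for alignment and featureCounts v1.5.0-p3 for gene counts; the genome build and the use of strand are not given in the sources used here. The deposited counts are whole reads per gene. The deposited FPKM values were computed by the authors from those counts, per transcript length, on totals rescaled by size factors. Here, counts were scaled by TMM and tested in edgeR 4.0.16 (R 4.3.3), with genes kept at 10 or more counts in 90% of libraries: 1 model of the 14 left libraries by group, and 1 of 12 libraries from 6 rats with rat as a block, since left and contralateral DRG came from the same animal (correlation of their deviations 0.11 to 0.43). Replicate numbers of the left groups are only numbers in the labels, but FOD-CT and FOD-CCI libraries of the same number deviated together (correlations 0.43, 0.24 and 0.19), as no other such pair of groups did throughout, and a block within the fish oil groups was added after the data were seen. DESeq2 1.42.0 was an alternative. Scripts were tested on simulated data. Errors are SE of the log2 fold change; replicates are separate rats. The alternatives were other size factors, no filter, a length offset, a replicate block, scaling to neuron markers and leaving out libraries. The members, gene lists and marker lists were chosen with earlier results of these data known. Named genes were all 8 members, each called gene of a list, and the 5 genes most like the neurofilaments; genes called only without a library were named after their values were seen. Depth leaves members at 268 counts or more, so the spread between rats, not counting error, limits precision.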

Additional observations from a re-analysis of the deposited data

How the results depend on the processing

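For the 64 results of single members, 896 alternative values were computed, and 848 were scored as unchanged. Of the rest, 34 reversed, 8 of them under settings that kept every library, and 14 passed the threshold anew. Of the 64 results, 49 reversed under no setting run. The 64 include untested log2 ratios of mean levels, CCI to CT, for each member and diet. Such ratios counted as unchanged if they moved less than the SD between libraries, and were not scored for reversal. The remaining results had to keep their direction and side of the threshold. Only some members were included for the comparisons between diets, the interaction and the means of both diets.

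Genes called in DESeq2 numbered 594 (SOD injury), 21 (FOD injury), 476 (mean injury), 2 (FOD-CCI against SOD-CCI), 42 (interaction), 472, 264 and 790 (SOD, FOD and mean side) and 60 (side difference between diets), with 0 members among them. Mean injury gave 24 with DESeq2 size factors in edgeR, 224 without the count filter and 76 with a length offset. Without the filter the sides gave 220, 61 and 456 and their difference 3. Scaling to neuron markers, chosen after the data were seen, gave 0 for the FOD side, 35 for the mean side and 6 for the side difference.

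Left groups share replicate numbers, and only FOD-CT and FOD-CCI deviated together by number. The replicate block over all left groups called 1 gene in SOD injury and 1 in mean injury, and 0 members; the block within the fish oil groups called 0 genes with all libraries, and with 3 left out 72 in FOD injury, with 0 members, and 825 in mean injury, with 3 members. Without the rat block the SOD side had 0, the FOD side 0 and the mean side 10 genes called, and Nefl on the FOD side was -0.1144.

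Other reversals were Mapt on the SOD side with the length offset (-0.00422), Nefh on the mean side without the filter (0.01104) and, on the FOD side scaled to neuron markers, Nefl (-0.1903), Ina (-0.09248), Map1b (-0.1452), Map1a (-0.4108) and Mapt (-0.4964). The cause was not tested.

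Leaving out libraries moved genes called from 0 to 200 in SOD injury, 0 to 526 in FOD injury, 0 to 1180 in mean injury, 0 to 471 on the SOD side, 0 to 137 on the FOD side and 8 to 1146 on the mean side. Members called moved from 0 to 1, 0 to 3 and 0 to 3 for the injury comparisons and from 0 to 1 and 0 to 2 on the SOD and mean sides. The highest counts came without SOD-CT replicate 1, FOD-CT replicate 1 and FOD-CCI replicate 1, or on the sides without FOD-CCI replicate 1. Log2 values that crossed 0 were Nefh in SOD injury (-0.3636 to 0.1106), Ina in FOD injury (-0.6556 to 1.282), and Map1b (-0.4708 to 0.08883) and Mapt (-0.01291 to 0.1909) on the SOD side. On the FOD side they were Nefl (-0.919 to 1.143), Nefm (-0.6693 to 1.455), Nefh (-0.6651 to 1.511), Map1b (-0.1518 to 1.109), Map1a (-0.1585 to 0.6342) and Mapt (-0.1027 to 0.3569). On the mean side they were Nefl (-0.8922 to 0.1394), Nefm (-0.6339 to 0.4289) and Nefh (-0.5797 to 0.5091), and the side difference of Nefl ran from -0.05372 to 2.007.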
